A study of Mus musculus with 22 samples.

Results

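DNA methylation in retinal progenitor cells of the embryo was set against that in Müller glia of the young adult mouse. The comparison used 6 of the 22 samples of the series, and 6 of its 12 samples of reduced representation bisulfite sequencing (RRBS). Members were taken by label: 3 RRBS libraries of retinal progenitor cells (RPCs) from embryonic day 12.5, and 3 of Müller cells from mice of 2 to 3 months, with no treatment named in the labels. All samples came from C57BL/6 mice. Müller cells were isolated by flow cytometry from mice that carry a green fluorescent protein reporter under Rlbp1, a gene that these glia use, so the gate selects cells by that reporter. For RPCs the labels name no reporter and no sort, and the collected tissue may hold early neurons beside dividing cells. The other RRBS groups of the series were Müller cells taken 2 days after an injection of NMDA into the eye and Müller cells of aged mice (1.5 years), with 3 libraries each. They enter below only as values.

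Methylation of cytosine in CpG pairs is copied at each cell division by Dnmt1 with its partner Uhrf1, is placed anew by Dnmt3a and Dnmt3b, and can be oxidised for removal by Tet enzymes. CpG-dense gene starts are usually free of methylation whether or not the gene is used, whereas CpG-poor starts and distal elements often lose it in the cell types that use them. RPCs divide and give rise to all neurons of the retina and, last, to Müller glia, which recycle glutamate, buffer potassium and water, and handle retinoids for photoreceptors. RRBS cuts DNA at a CpG-containing site and reads the short fragments after bisulfite treatment, so it covers CpG-rich DNA well and the rest of the genome sparsely.

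A position is 1 cytosine of a CpG on 1 strand, and its level is the percent of reads that were read as methylated. Of 3264391 positions listed in any of the 6 libraries, 847332 were listed in all 6 and 828187 of these were autosomal. Median coverage over them was 49 to 99 reads per library. Levels correlated between RPC libraries with Pearson's r of 0.975 to 0.980 across positions. Young replicate 1 stood apart from the other 2 young libraries, with r of 0.930 and 0.933 against 0.966 between those 2, so counts below are also given without it. The libraries also differed in background. Positions of the mitochondrial genome, which is expected to carry little CpG methylation, had mean levels of 11.5, 10.7 and 7.57% in young libraries against 2.20, 5.61 and 3.74% in RPC libraries. At 377377 positions near gene starts that were under 20% in all 6 libraries and differed by less than 10 points between the groups, 3.05, 3.05 and 2.28% of reads in young and 0.619, 1.63 and 1.16% in RPC libraries were methylated. These start positions were chosen for a small group difference, so they describe the libraries and are no independent measure of background. The part of background in differences of a few points with young cells higher was not tested.

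Averaged over all 828187 positions, the mean level was 25.6% ± 0.397 in RPCs and 24.7% ± 0.804 in young Müller glia (SD, n = 3 libraries each, two-sided exact permutation p = 0.2). The average joined opposite differences. Within 1000 bp of gene starts the mean level was 3.43% ± 0.569 in RPCs and 5.14% ± 0.473 in young glia. Elsewhere in genes it was 43.2% ± 0.230 against 39.7% ± 1.42, and between genes 57.1% ± 0.203 against 53.3% ± 1.77. Weighted by each library's own coverage instead of equally, the difference of RPCs minus young glia was 11.8 points over all positions, -0.686 at starts, 19.3 within genes and 19.04 between genes, against 0.874, -1.71, 3.48 and 3.84. The weights then differ between libraries, so where each library's reads fall enters this difference beside the levels. At equal weights the libraries of the 2 groups did not overlap in any of these 3 contexts. The exact permutation p was 0.1 in each, the smallest that 3 libraries against 3 can give. The profile around starts had the same shape in all 6 libraries: 50 bp after the start, RPC libraries had mean levels of 1.57, 2.61 and 2.21% and young libraries 4.08, 4.25 and 3.41%, and at the edge of the profile, farthest before it, RPC libraries had 17.5, 18.3 and 17.8% and young libraries 17.9, 19.11 and 18.2%.

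Most of the single positions that differed had less methylation in the glia. A position was called when its adjusted p was under 0.05 (quasi-binomial model, Benjamini-Hochberg) and the groups differed by at least 10 points. Of 775219 positions with any variation, 30975 (4%) were higher in RPCs and 13084 (1.69%) higher in young Müller glia. Without young replicate 1 these counts were 23534 and 10261, and the count higher in glia was 8370 without RPC replicate 1, 7389 without RPC replicate 3 and 8657 without young replicate 2. Positions higher in RPCs had a median level of 77.9% in RPCs and 14.4% in young glia, and 53.2% of them differed by at least 50 points. Positions higher in young glia had medians of 5.12% in RPCs and 39.2% in glia, and 16.8% of them differed by that much. The counts are also given here by the level in RPCs. Of 88241 positions between 10 and 90% in every RPC library, 17661 (20%) were higher in RPCs and 3270 (3.71%) higher in glia. Of 82514 at 90% or more in every RPC library, 4164 (5.05%) were higher in RPCs, and of 501602 at 10% or less, 7328 (1.46%) were higher in glia. Both strands were listed for 222538 CpGs. A strand was called in 11517 of them, both strands were called in the same direction in 6298, and in 0 were they called in opposite directions.

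The NMDA and aged libraries had no part in choosing these positions, of which 28521 and 12331 were listed in all 12 libraries. At the positions higher in RPCs, mean levels were 71.0, 71.0 and 71.9% in RPC libraries and 17.3, 21.4 and 19.3% in young libraries, and 22.6, 24.3 and 19.3% in aged libraries. NMDA libraries lay higher, at 37.4, 37.1 and 44.8%. At the positions higher in young glia, RPC libraries were at 14.8, 14.9 and 14.2% and young libraries at 46.0, 45.8 and 44.8%, with NMDA libraries at 40.4 to 41.1% and aged libraries at 39.96 to 40.5%. The 2 other Müller groups were thus closer to young glia than to RPCs on both sets, though NMDA replicate 3 lay near the middle on the first. The positions were chosen for RPC and young levels that lie far apart. Libraries outside that choice can fall between them for this reason alone, and the part of the choice was not tested. NMDA libraries lay between the RPC and young libraries on both sets, and aged libraries did so on the second set and overlapped the young libraries on the first.

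**Figure D1:**
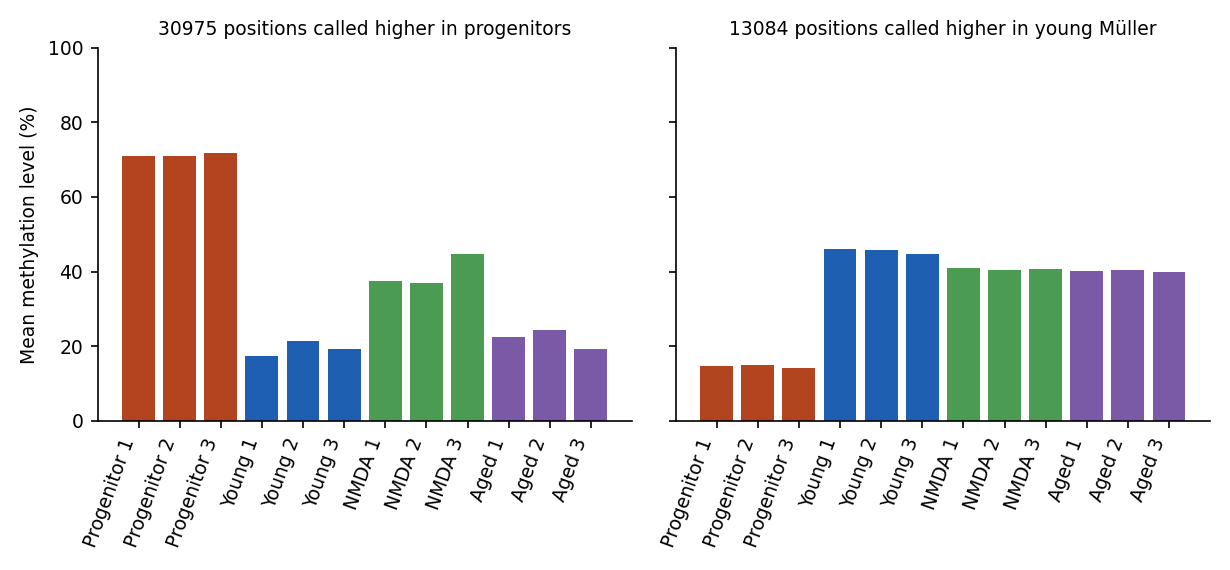
Mean methylation level (%, y axis) in each of the 12 RRBS libraries (x axis) at the positions called higher in progenitors (left) and at those called higher in young Müller glia (right), among positions listed in all 12 libraries. The bars of progenitor and young libraries were used to choose the positions; on the left the aged libraries lie at 19.3 to 24.3% and the NMDA libraries at 37.1 to 44.8%.

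Calls lay mainly away from gene starts. Of positions near starts 0.535% were higher in RPCs and 0.778% higher in glia, against 7.92% and 3.08% within genes and 6.84% and 1.99% between genes. In tiles of 1 kb the same counts were 3935 of 40116 tiles (9.81%) higher in RPCs and 1338 (3.34%) higher in young glia, or 3575 and 1343 without young replicate 1. Tiles with 5 to 9 positions were called higher in RPCs in 14.9% and higher in glia in 4.09%. Tiles with 40 or more positions, with mean levels of 2.90% in RPCs and 4.82% in glia, were called in 0.443% and 0.969%.

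Gene starts were compared as windows of 1000 bp on either side of a RefSeq start, with at least 5 positions. Where a gene had several annotated starts, the one with most measured positions was taken, and it need not be the main one. It can lie inside the annotated gene, as at Rlbp1 and Bmpr1b. Of 11119 windows, 8861 lay on annotated starts. The other 2258 lay on the gene end with more measured positions, used where the tables gave no start, and such a window is called a gene end below since it need not be the start. In all, 154 windows (1.39%) were higher in RPCs and 82 (0.737%) higher in young glia, or 120 and 80 without young replicate 1. With at least 10 positions per window 81 were higher in RPCs. The median window had 1.47% in RPCs and 3.65% in glia, a difference of -1.96 points. Without the minimum of 10 points, 6832 windows (61.4%) had an unadjusted p under 0.05 and 5804 (52.2%) an adjusted p under 0.05, of which 288 were higher in RPCs. Windows higher in RPCs went from a median of 55.2% to 20.3%, and those higher in glia from 6.12% to 27.4%. The first kind was CpG-poor: its median ratio of observed to expected CpGs in the RefSeq promoter sequence was 0.364, that of the second kind 0.484, and that of all windows 0.789. Of 737 start windows with a ratio under 0.4, 8.68% were higher in RPCs and 2.99% higher in glia, and of 5026 with a ratio of 0.75 or more, 0.259% and 0.179%.

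**Figure D2:**
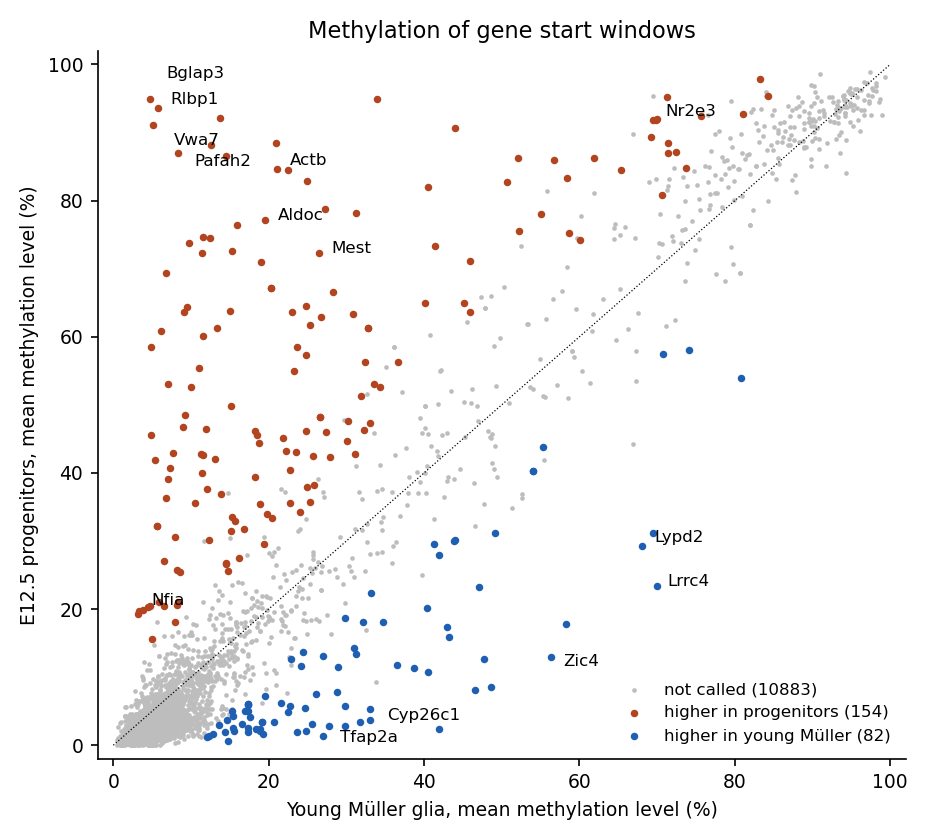
Mean methylation level (%) of each of the 11119 windows in young Müller glia (x axis) and in E12.5 progenitors (y axis), each point a window and the dotted line equality. The 154 windows called higher in progenitors lie toward the upper left, the 82 called higher in young glia toward the lower right, and most others crowd near 0.

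Of the 28 genes listed for Müller glia, 17 had a window. Of these, 3 (17.65%) were higher in RPCs and 0 higher in young glia, against 1.39% and 0.737% of all windows. At an unadjusted p under 0.05, before the minimum of 10 points, 15 of the 17 (88.2%) differed, against 61.4% of all windows. Without that minimum 13 passed the adjusted p, 4 of them higher in RPCs and the others higher in young glia. The list's median difference was -2.17 points, against -1.96 over all windows. None of the 3 was called with windows of 500 bp on either side, where Rlbp1 and Aldoc keep under 5 positions, or with at least 10 positions, which leaves out windows of 7 and 8 positions, and Rlbp1 could not be tested with at least 20 reads per position. Rlbp1 encodes the retinoid-binding protein CRALBP and drives the reporter of the sort. Its window on chromosome 7 (start at 79387027, minus strand, mm10/GRCm38) had levels of 97.4, 90.5 and 92.9% in RPCs and 3.43, 10.2 and 3.69% in young glia, a difference of 87.8 points ± 2.99 (SE, adjusted p = 3.29e-05, quasi-binomial model). All RPC libraries were near full methylation and all young libraries near none. The 7 positions lie on 1 strand, 454 to 523 bp after the start in the 70 bp from chr7:79386504-79386573, so they are read from the same molecules and are not independent. The reporter mice may carry extra copies of Rlbp1 sequence, and reads from any such copies cannot be told apart from those of the gene itself. In the other Müller groups this stretch was at 65.3, 24.0 and 20.6% after NMDA and at 11.3, 19.11 and 5.82% in aged mice.

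Aldoc, a glycolytic aldolase of glia, had 81.4, 78.3 and 71.8% in RPCs and 16.6, 23.8 and 18.3% in young glia (difference 57.6 points ± 3.58, adjusted p = 8.32e-06). Its 8 positions lay on both sides of the start. The third called window, at an end of the chaperone gene Clu, differed by 15.6 points ± 1.57, from 86.9% in RPCs to 71.3% in glia, and was not called within 500 bp on either side (0.660 points). The remaining 14 windows included those of Glul (glutamine synthetase), Slc1a3 (the glutamate transporter GLAST), Vim and Apoe, with means of 1.02 to 2.91% in RPCs and 3.72 to 4.55% in young glia. Kcnj10, the potassium channel Kir4.1, had 10.1, 10.1 and 12.7% in RPCs and 3.83, 5.80 and 4.39% in glia, a difference of 6.32 points that passed the adjusted p (0.00180) but not the minimum of 10 points. Gfap and Aqp4 had no window.

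Methylation at several Müller genes differed elsewhere in the gene or near it. Runs of at least 5 called positions in the same direction, with gaps of at most 300 bp, are called regions here, and since the position test chose them their levels are a description without a test. Of 24 Müller glia genes with measured positions, 6 (25%) held a region higher in RPCs within the gene or 5 kb of it, and 0 one higher in glia. Rlbp1, whose window was called above, is among the 6. Over all 15720 genes these shares were 7.31% and 3.3%. The region genes named from lists here and below were picked after their values were seen. At Glul, chr1:153904445-153904687, 4637 bp from the start, had 96.1, 97.3 and 92.7% in RPCs and 42.5, 30.8 and 37.8% in young glia. At Kcnj10, chr1:172342600-172342894, 1537 bp from the start, had 95.1, 85.2 and 87.8% against 6.43, 11.3 and 6.31%. Both genes thus had a low start in all 6 libraries and an interior stretch that was nearly full in RPCs. Dkk3, a secreted Wnt modulator, had 89.3, 95.8 and 97.1% against 24.4, 21.7 and 25%, and the receptor gene Gpr37 had 93.9, 91.8 and 93.9% against 7.87, 6.92 and 7.27%. Car2, a carbonic anhydrase, had 28.0 to 39.1% in RPCs and 2.59 to 6.09% in glia.

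The window with the largest difference was that of Bglap3, a gene of the osteocalcin family, on 5 positions: 93.0, 98.8 and 93.1% in RPCs and 2.50, 6.00 and 5.51% in young glia (90.3 points ± 2.22, adjusted p = 0.000457). It was followed, after Rlbp1, by Vwa7, whose product has a von Willebrand factor A domain, with 88.2, 91.2 and 94.0% against 5.52, 3.98 and 5.68% (86.1 points ± 1.77, adjusted p = 5.90e-07). The start of Vars, a tRNA synthetase gene, lies in the same window. Pafah2, a phospholipase that removes oxidised lipids, had 90.1, 81.0 and 89.9% against 9.31, 8.19 and 7.54% (78.6 points ± 3.06, adjusted p = 6.79e-07). Ddo, D-aspartate oxidase, had 81.2, 91.3 and 91.8% against 13.6, 17.7 and 6.48%, and Npsr1, a neuropeptide receptor, had 69.6, 76.3 and 78.1% against 10.5, 10.95 and 13.4%. These 5 windows were named for the size of their difference, so the distance between the groups there follows from that choice.

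The 250 bases before these 5 starts are printed because most of their CpGs were measured, so that the levels below can be read CpG by CpG. Sequences are RefSeq's for GRCm38.p6, 5′ to 3′ on the gene's strand, and end at the base before the start, and capitals mark the CpGs measured in all 6 libraries.
Vwa7 chr17:35016329-35016578, plus strand: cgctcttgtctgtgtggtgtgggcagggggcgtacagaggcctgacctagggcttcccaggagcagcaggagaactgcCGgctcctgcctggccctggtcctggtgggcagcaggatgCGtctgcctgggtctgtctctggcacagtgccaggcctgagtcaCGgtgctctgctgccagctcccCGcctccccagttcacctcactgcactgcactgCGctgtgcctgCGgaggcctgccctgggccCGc
Pafah2 chr4:134402662-134402911, plus strand: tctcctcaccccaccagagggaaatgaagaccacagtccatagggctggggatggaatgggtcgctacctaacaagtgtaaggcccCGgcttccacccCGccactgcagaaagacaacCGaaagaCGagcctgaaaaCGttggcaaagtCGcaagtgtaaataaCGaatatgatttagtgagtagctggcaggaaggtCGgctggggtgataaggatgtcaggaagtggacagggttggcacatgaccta
Bglap3 chr3:88371480-88371729, minus strand: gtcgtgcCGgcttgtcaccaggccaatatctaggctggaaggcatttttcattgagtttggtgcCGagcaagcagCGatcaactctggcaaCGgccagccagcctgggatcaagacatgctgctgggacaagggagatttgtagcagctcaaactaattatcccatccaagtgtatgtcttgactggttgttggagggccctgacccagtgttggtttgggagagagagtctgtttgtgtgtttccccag
Ddo chr10:40629761-40630010, plus strand: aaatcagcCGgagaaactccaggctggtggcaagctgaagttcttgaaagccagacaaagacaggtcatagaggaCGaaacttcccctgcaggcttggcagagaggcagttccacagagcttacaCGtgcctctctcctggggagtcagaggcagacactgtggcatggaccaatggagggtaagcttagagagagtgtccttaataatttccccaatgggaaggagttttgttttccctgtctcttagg
Npsr1 chr9:24097768-24098017, plus strand: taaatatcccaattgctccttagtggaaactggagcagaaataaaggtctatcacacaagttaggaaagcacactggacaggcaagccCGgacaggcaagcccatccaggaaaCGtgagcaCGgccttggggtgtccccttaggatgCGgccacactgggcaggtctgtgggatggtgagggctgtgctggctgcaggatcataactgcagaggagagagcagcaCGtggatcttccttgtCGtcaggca

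In Vwa7, 7 of 9 CpGs were measured, with RPC means of 70.2 to 98.3% and young means of 1.15 to 10.3%. Its 3 CpGs closest to the start, 33, 22 and 3 bases before it, had RPC means of 98.1, 97.7 and 98.3% against 2.16, 3.94 and 3.47%. In Pafah2, 8 of 9 CpGs, 164 to 52 bases before the start, had RPC means of 70.4 to 98.3% and young means of 0 to 31%. The 4 measured CpGs of Bglap3, 243 to 159 bases before the start, had 82.5 to 100% against 0 to 14.8%. The 3 of Ddo, 242 to 125 bases before the start, had 71 to 93.6% against 1.5 to 20.9%. In Npsr1, RPC means fell toward the start, from 89.7% at 162 bases before it to 45.3% at 9 bases before it, and the young means there were 11.2 and 0.673%. Every measured CpG in these 5 stretches was higher in RPCs, by 44.6 to 95.9 points. The stretches belong to windows chosen for large differences in the same libraries, so these levels are a description and no separate support. The 5 stretches held 3 to 9 CpGs each.

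**Figure D3:**
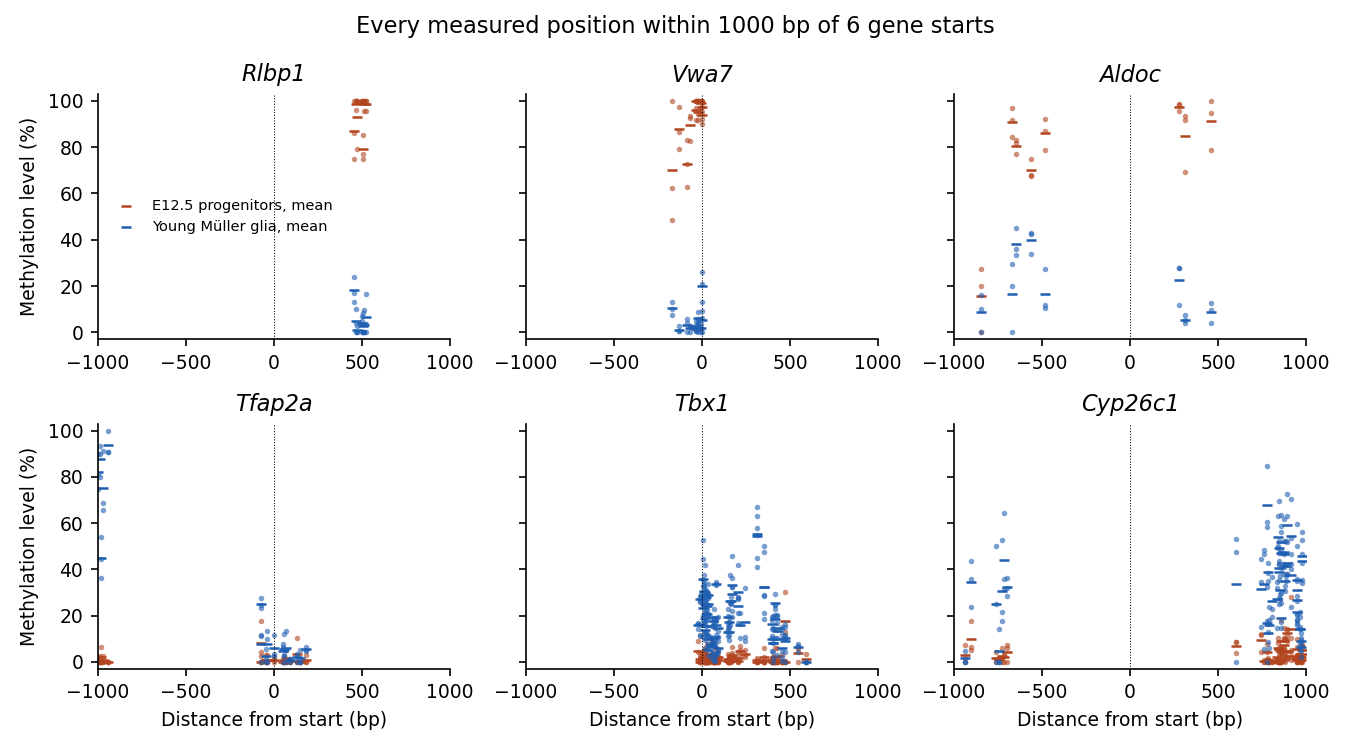
Methylation level (%, y axis) of every measured position within 1000 bp of the starts of 6 genes (x axis, distance from the start in bp, negative before it): dots are single libraries and dashes group means, progenitors in red and young Müller glia in blue. Rlbp1, Vwa7 and Aldoc are higher in progenitors at their measured positions, Tfap2a is higher in young glia mainly near 1000 bp before its start, and Tbx1 and Cyp26c1 are higher in young glia over most of the measured stretch.

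The other windows with the largest differences in this direction were those of the muscle caveolin gene Cav3 (67.5 points) and the gene ends of Rarres2 (78.4 points), the small heat shock gene Hspb2 (64.0 points) and Actb (63.6 points). Rarres2 encodes the attractant chemerin. Bmpr1b, a receptor of bone morphogenetic proteins, had 67.1, 61.8 and 70.9% in RPCs and 31.8, 30.7 and 22.3% in young glia (38.4 points ± 4.01, adjusted p = 0.00523). It was the only called window among 34 of the Wnt and BMP list (2.94% higher in RPCs, against 1.39% of all windows). Nfia, a nuclear factor I gene needed for gliogenesis, was at 14.4, 18.5 and 26.3% in RPCs and 0.773, 5.13 and 3.93% in glia (16.4 points ± 3.71, adjusted p = 0.0218), on 7 positions of 1 strand. That call was lost without RPC replicate 2 or without RPC replicate 3 (17.1 and 13.2 points). Notch4 differed by 12.8 points on 5 positions, a call lost without RPC replicate 1, 2 or 3 or young replicate 1 or 3 (11.1 to 14.8 points) and with the replicate number as a block (adjusted p = 0.0615, quasi-binomial model). Nr2e3, a photoreceptor transcription factor, had 92.7, 89.0 and 93.8% in RPCs and 76.1, 75.3 and 57.1% in young glia (22.3 points ± 6.39, adjusted p = 0.00801, quasi-binomial model). The libraries did not overlap, as in 150 of the 154 windows higher in RPCs. With at least 20 reads per position the Nr2e3 call was lost (17.1 points). Nfia was the only called window among 14 of the nuclear factor I and Sox list (7.14%). Notch4 was the only one among 21 of the Notch pathway list (4.76%), and Nr2e3 among 5 of the photoreceptor list (20%). Of all windows, 1.39% were higher in RPCs.

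In the opposite direction, Lrrc4, a synaptic adhesion gene, had 23.3, 24.7 and 21.9% in RPCs and 80.8, 66.6 and 62.4% in young glia, the largest difference among windows higher in glia (-46.6 points ± 5.62, adjusted p = 0.000677). Zic4, a zinc finger gene of neural patterning, had 11.7, 12.5 and 14.6% against 53.2, 60.1 and 55.7% (-43.4 points ± 2.21, adjusted p = 0.000138), on 13 positions 839 to 972 bp after its start. Cyp26c1, an enzyme that degrades retinoic acid, had 3.54, 4.51 and 3.24% against 32.2, 36.3 and 30.7% (-29.3 points ± 1.71, adjusted p = 9.51e-07) over 43 positions. Hes7, Lrtm1, Spx and Fignl2 differed by -40.5, -40.1, -38.4 and -35.1 points, and Arhgap45 by -29.8 points. Hes7 is a clock gene of the segmenting mesoderm. The gene ends of Lypd2 and Fsbp differed by -38.8 and -38.3 points. In each of these windows the highest RPC library lay below the lowest young library, which was a condition of naming them. All 82 windows higher in young glia were without overlap between the groups, as were 67.5% of all windows.

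A few windows of other genes of the embryo's patterning and of early neurons were also higher in young glia. Of 74 homeobox and T-box patterning windows outside the Hox clusters, 2 (2.70%) were called in this direction. The counts were 2 of 22 (9.09%) for the neurogenic and early neuron list and 1 of 14 (7.14%) for the pluripotency list. The share over all windows was 0.737%, and 0 windows of these lists were called higher in RPCs. Tdgf1, the Nodal co-receptor Cripto, was the called gene of the pluripotency list, with 2.39, 3.35 and 2.94% in RPCs and 32.0, 28.9 and 28.6% in young glia (-26.9 points ± 1.14, adjusted p = 6.79e-07). Tbx1, a T-box factor of pharyngeal development, had 1.13, 2.13 and 1.59% against 19.8, 19.97 and 18.03% (-17.6 points ± 0.679, adjusted p = 6.79e-07) over 63 positions. Both windows were almost free of methylation in RPCs and partly methylated in all young libraries. Ebf1, a factor of differentiating neurons, had 1.17, 3.89 and 2.12% against 18.3, 22.1 and 16.2% (-16.5 points ± 1.90, adjusted p = 0.000335). Tfap2a, an AP-2 factor of amacrine cell development, had 0.144, 2.91 and 0.944% against 26.5, 28.2 and 26.3% (-25.7 points ± 1.03, adjusted p = 0.000438). Most of the Tfap2a difference lay near the window's edge, about 1000 bp before the start, and within 500 bp of the start the difference was -4.76 points and not called. The region there, chr13:40735862-40736033, had 0.51, 1.17 and 1.82% against 68.1, 65.1 and 61.1%. It runs past the window's edge at 40735920, so these levels can include positions outside the window.

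The bases before the starts of Tfap2a and Tbx1 are printed beside those above, with capitals again at measured CpGs. They held 10 and 17 CpGs in 250 bases, against 3 (Ddo) to 9 (Vwa7 and Pafah2) above. Their ratios of observed to expected CpGs were 0.71 and 0.729, against 0.152 (Ddo) to 0.447 (Pafah2).
Tfap2a chr13:40734921-40735170, minus strand: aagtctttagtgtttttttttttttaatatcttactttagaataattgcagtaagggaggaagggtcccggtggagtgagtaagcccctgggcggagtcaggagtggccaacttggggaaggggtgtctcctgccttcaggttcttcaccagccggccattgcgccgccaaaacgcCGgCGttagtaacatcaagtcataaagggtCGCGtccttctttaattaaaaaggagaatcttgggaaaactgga
Tbx1 chr16:18588900-18589149, minus strand: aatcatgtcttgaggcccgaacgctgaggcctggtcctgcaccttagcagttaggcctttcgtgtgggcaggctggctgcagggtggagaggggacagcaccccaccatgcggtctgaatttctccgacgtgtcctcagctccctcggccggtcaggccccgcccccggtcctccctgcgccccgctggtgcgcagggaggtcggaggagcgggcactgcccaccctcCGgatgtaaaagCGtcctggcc

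The 4 measured CpGs of the Tfap2a stretch had RPC means of 0 to 8.1% and young means of 2.36 to 25.1%, and the difference was largest 74 bases before the start, at -17 points. The 2 measured CpGs of Tbx1, 22 and 10 bases before the start, had RPC means of 4.70 and 0.66% and young means of 15.9 and 21.7%. Unlike the 5 stretches higher in RPCs, neither of these had a measured CpG with a group mean above 25.1%.

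**Figure D4:**
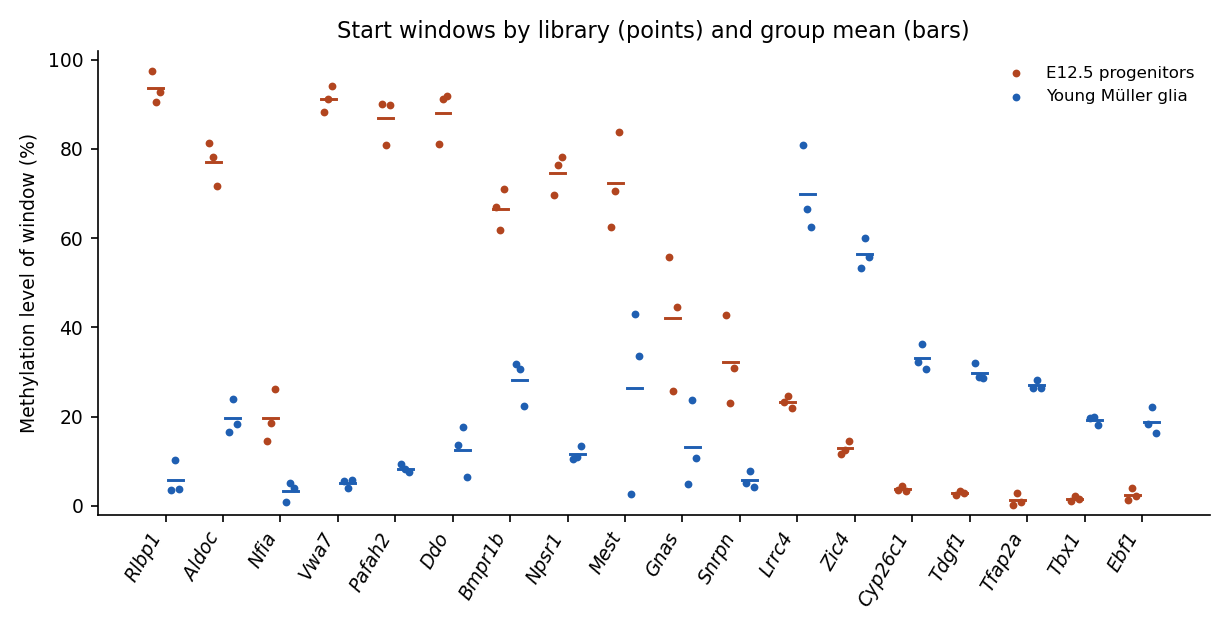
Methylation level (%, y axis) of the windows of 18 named genes (x axis) in each library (points) with the group mean (bar), progenitors in red and young Müller glia in blue, n = 3 libraries each. From Rlbp1 to Snrpn the progenitor means lie above the young means, and from Lrrc4 to Ebf1 below them; the spread within a group is widest at the imprinted genes Mest and Gnas.

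Eye field and progenitor genes kept low starts in both groups. Of 25 windows of this list, 0 were called in either direction. At an unadjusted p under 0.05, 20 (80%) differed, against 61.4% of all windows, and 18 (72%) passed the adjusted p, against 52.2%. All 18 were higher in young glia, as were all but 288 of the 5804 windows that passed it, and all by less than 10 points. The list had median levels of 1.23% in RPCs and 3.63% in young glia, against 1.47% and 3.65% over all windows. Pax6, the main eye field factor, differed by -3.23 points, Lhx2 by -2.24 points and Hmga2, a chromatin protein of early progenitors, by -2.49 points. Of the proneural genes, Neurog2 had 1.82% in RPCs and 3.13% in glia, and Atoh7 had 1.43% and 2.73%. Of 14 windows of the DNA methylation machinery, 10 (71.4%) passed the adjusted p, against 52.2% of all windows, and 0 were called, against 2.12%. Dnmt3a had 1.31, 3.25 and 2.04% in RPCs and 7.96, 9.90 and 10.1% in young glia (-7.13 points ± 0.892, adjusted p = 0.000880). Of 31 Hox windows, 0 were called and 20 (64.5%) had an unadjusted p under 0.05, close to the shares of all windows (2.12% and 61.4%), and 0 of 39 Hox loci held a region.

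Away from their starts, these gene groups differed in the direction of their regions. Of 26 neurogenic and early neuron loci, 5 (19.2%) held a region higher in young glia and 0 a region higher in RPCs, against 3.3% and 7.31% of all genes. A locus with more measured positions has more room for a region, so shares of tested positions are given as well. At these loci 4.09% of tested positions were higher in glia and 0.223% higher in RPCs, against 1.76% and 2.86% over all genes. Upstream of Neurog2, the stretch chr3:127627544-127628530, 5099 bp from the start, had 0.55, 2.70 and 1.47% in RPCs and 20.6, 21.6 and 20.03% in young glia. Its 40 called positions spanned 987 bp, among the 8 largest regions of this direction. Of 84 homeobox and T-box patterning loci outside the Hox clusters, 21 (25%) held a region higher in glia and 3 (3.57%) one higher in RPCs. Of their tested positions, 3.93% were higher in glia and 0.387% higher in RPCs. Nkx2-2, a ventral neural tube factor, had 4 regions, the largest at 0.98, 1.50 and 1.86% against 34.3, 35.1 and 37.9%. Near Foxc1, a forkhead factor of the eye's mesenchyme, chr13:31811955-31812053 had 4.80, 8.71 and 4.96% against 84.4, 89.9 and 89.2%. Foxc1 was thus close to a full switch, whereas Nkx2-2 stopped at intermediate levels.

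Progenitor and eye field loci went both ways, with 4 of 26 (15.4%) in each direction. Of their tested positions, 2.19% were higher in RPCs and 2.51% higher in glia, against 2.86% and 1.76% over all genes. Hmga2, a heterochronic gene of early progenitors, held 3 regions higher in RPCs, the largest of them chr10:120428516-120428698, 47862 bp from the start, at 86.5, 78.7 and 81.5% in RPCs and 5.02, 4.85 and 3.99% in glia. A region at Lhx2 had 82.2, 83.4 and 79.4% against 23.2, 24.0 and 24.5%. At Meis2, chr2:116060820-116061012 had 5.57, 6.64 and 7.82% against 83.4, 95.0 and 91.1%. Meis2 therefore differed about as far as Hmga2, in the opposite direction. Of Notch pathway loci, 5 of 24 (20.8%) held a region higher in RPCs, among them Notch1 (83.1, 83.3 and 86.3% against 6.66, 10.1 and 6.4% at chr2:26493799-26494000), and 1 (4.17%), the Notch modulator gene Lfng, a region higher in glia. By tested positions the Notch loci were near all genes in the first direction, with 2.94% higher in RPCs against 2.86%. The share higher in glia was 0.833%, against 1.76%. Among glial transcription factors, Sox8 held 2 regions higher in RPCs, of which chr17:25566090-25566493 had 85.7, 85.2 and 86.4% against 10, 5.48 and 7.52%. Nfix, a nuclear factor I gene, held 4 regions higher in young glia, with 0.876 to 4.30% in RPCs and 15.0 to 62.0% in glia over the 4.

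Wnt7b showed both directions in 1 gene: chr15:85538091-85538314 had 80.5, 88.0 and 89.8% in RPCs and 4.12, 3.98 and 5.01% in glia, and chr15:85579889-85580062 had 4.60, 5.95 and 6.45% against 68.7, 80.1 and 74.3%. Clustered protocadherin genes, which give neurons their surface identity, had 21 of 47 loci (44.7%) with a region higher in glia and 0 with one higher in RPCs. These 21 loci overlap each other and share 4 regions, so they are not 21 separate observations.

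Where imprinted genes differed between RPCs and young glia, they were mostly higher in RPCs. They carry methylation on 1 parental copy at control regions, so that intermediate levels are usual in somatic cells. Of 23 windows on imprinted genes, 7 were higher in RPCs and 0 higher in young glia, against 1.39% and 0.737% of all windows, and the list's median level was 32.2% in RPCs and 13.1% in glia. Of 25 loci, 13 (52%) held a region higher in RPCs and 1 (4%) a region higher in glia, Dio3. Mest, a hydrolase gene expressed from the paternal copy, had 62.4, 70.7 and 83.8% in RPCs and 2.70, 43.0 and 33.6% in young glia (45.8 points ± 13.7, adjusted p = 0.00511), where young replicate 1 was far below the other 2. Gnas, the Gs alpha locus, had 55.9, 25.6 and 44.6% against 4.86, 23.7 and 10.7% (28.9 points ± 10.4, adjusted p = 0.00193). Its lowest RPC library and highest young library were less than 2 points apart. Snrpn, of the Prader-Willi region, had 42.7, 23.0 and 30.9% against 5.02, 7.74 and 4.25% (26.5 points ± 5.81, adjusted p = 0.000854). In NMDA libraries Mest was at 57.0, 65.5 and 58.1%, Gnas at 35.2, 43.6 and 48.8% and Snrpn at 47.8, 17.6 and 28.2%. Aged libraries had 47.4, 63.6 and 34.55% at Mest, 7.68, 22.0 and 4.78% at Gnas and 8.23, 10.4 and 2.19% at Snrpn. NMDA libraries thus overlapped the RPC libraries at each of these windows, and aged libraries did so at Mest. The other called windows were those of Nnat, Cdkn1c, Plagl1 and Zrsr1. In the largest regions at Igf2r, Grb10 and Zdbf2 levels were 34.1 to 50.8% in RPCs and 3.16 to 14.4% in young glia. At these regions every young library lay below every RPC library. Their positions were called higher in RPCs from these same libraries, so the separation follows from that choice. Of all positions called higher in RPCs, 98.7% had no overlap between the groups, against 21.7% of tested positions.

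Over the genome, 1897 regions were higher in RPCs and 588 higher in young glia, with median lengths of 182 and 177 bp, and without young replicate 1 there were 1461 and 455. The number higher in glia was 368 without RPC replicate 2, 358 without RPC replicate 3, 381 without young replicate 2 and 375 without young replicate 3. Of regions higher in RPCs, 5.69% lay at gene starts, 57.9% within genes and 36.4% between genes, and of those higher in glia 15.0%, 57.3% and 27.7%. The 2 regions with most called positions higher in RPCs lay on chromosome 17 from 39843334 to 39848244, with no protein-coding gene within 50 kb but with an annotated ribosomal RNA pseudogene. Their median coverage was 1180 and 344 reads in RPCs and 2003 and 1515 in young glia, against library medians of 49 to 99 reads per position over all positions, and whether reads of other ribosomal copies were placed there was not tested. The others among the 8 largest were at Gnas (2 regions), Mest, Tmem267, Tbc1d16 and Tirap. Tbc1d16, a Rab regulator, had 81.7, 74.7 and 82.8% against 6.31, 9.07 and 6.63%, and Tirap, an adaptor of Toll-like receptors, 76.4, 75.2 and 75.8% against 6.80, 11.2 and 12.8%. In the opposite direction the largest region was within Mn1, a transcriptional cofactor gene, at chr5:111418876-111420203, where 87 of 107 positions were called (3.28, 4.79 and 5.09% in RPCs against 34.6, 42.8 and 41.5% in young glia). The remaining ones were at Dact3, Arhgap23, Rps6ka4, Disp3, Mpst, Kbtbd11 and Neurog2.

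RNA of the same cell types, from other samples, was set beside the windows. Those libraries were 2 of young Müller glia and 3 of RPCs, fitted together with the 5 NMDA and aged libraries. In bulk RNA, fewer cells of a type and less RNA per cell cannot be told apart. Markers were compared with the labels: 27 of 28 Müller glia genes were higher in young libraries (summed CPM, the count scaled to library size, of 75543 and 64971 against 2976 to 3051), and 24 of 27 neurogenic genes, which mark early neurons, were higher in RPCs. Of the progenitor and eye field list, 16 of 26 were higher in RPCs and 3 higher in young glia. The 2 young RNA libraries had counts at fewer genes, 13913 and 14919, than RPC libraries of similar depth, 21863 to 22453, and than NMDA and aged libraries, 20920 to 23618, and the part of this in values of 0 and in RNA calls was not tested. Photoreceptor markers were also higher in young libraries, in 24 of 25 genes, with summed CPM of 16494 and 11189 against 79.2 to 93.2, and blood markers were higher in RPCs in 11 of 12, with 1689 to 10782 CPM against 12.3 and 1.18. Of 13 vascular markers, 7 were higher in RPCs and 3 in young libraries, with summed CPM of 263 to 267 against 3893 and 3708. Of 9 astrocyte markers, 3 were higher in RPCs and 4 in young libraries, with 128 to 184 CPM against 1651 and 1426. Cells of those kinds could be present in the RRBS samples as well. Their part in the methylation differences, such as that at Nr2e3, was not tested.

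Of 18931 genes tested, RNA was higher in RPCs in 6795 (35.9%) and higher in young glia in 4713 (24.9%) by edgeR's quasi-likelihood test at an adjusted p under 0.05. Among the 9576 genes with a window these shares were 37.3% and 27.3%, with a median log2 ratio of RPCs over young glia of 0.27. Of 108 genes with a window higher in RPCs, 19 (17.6%) had more RNA in RPCs and 51 (47.2%) more in young glia, with a median log2 ratio of -0.72. Of 61 genes with a window higher in young glia, 27 (44.3%) had more RNA in RPCs and 16 (26.2%) more in young glia, with a median of 1.36. For windows higher in RPCs the larger share was the one with more RNA in young glia, opposite to all genes with a window. For windows higher in young glia the larger share was the one with more RNA in RPCs, as it was among all genes with a window (44.3% against 37.3% of all such genes).

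**Figure D5:**
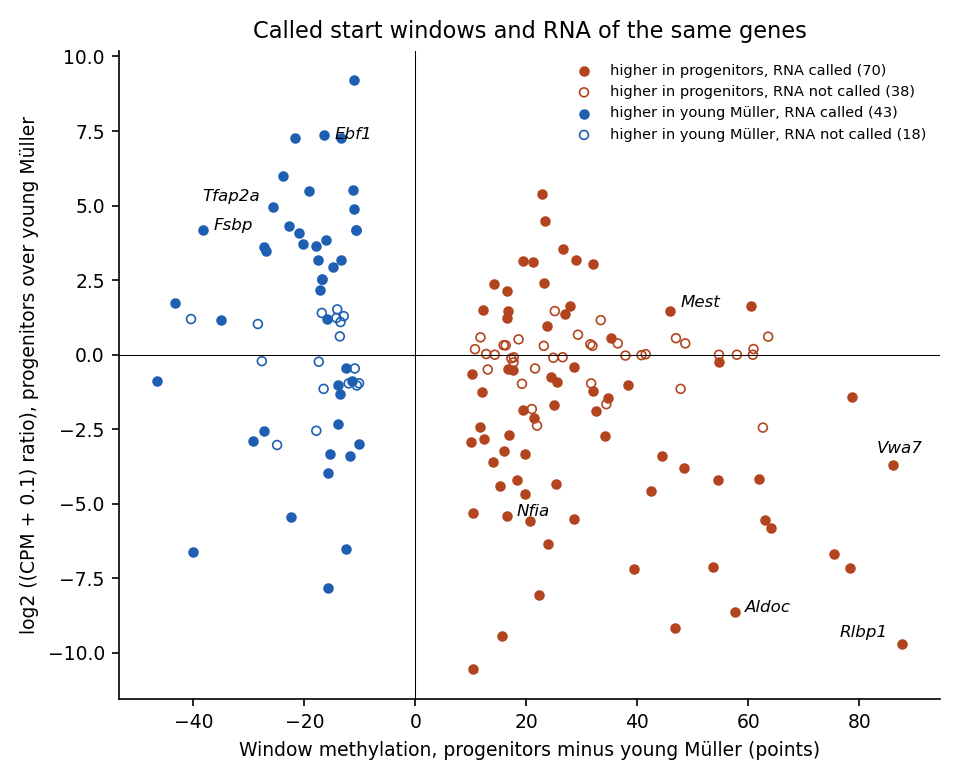
Difference in window methylation (x axis, points, progenitors minus young Müller glia) and log2 ratio of mean CPM + 0.1 in RNA of progenitors over young Müller glia (y axis) for the 108 and 61 genes with a called window and a tested RNA. Filled points passed the RNA test; on the right, where the window is higher in progenitors, 51 genes had more RNA in young glia and 19 more in progenitors.

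Rlbp1 had 4240 and 3320 CPM in young libraries and 6.75, 3.98 and 2.71 CPM in RPC libraries (log2 ratio -9.82 ± 0.50, SE, edgeR adjusted p = 7.68e-07). Aldoc had 1081 and 899 CPM against 2.82, 2.35 and 2.10 CPM, and Nfia 36.2 and 46.8 against 0.689, 1.18 and 0.787 CPM. In all 3 the window with less methylation belonged to the group with far more RNA. Vwa7 (23.6 and 33.6 against 1.05 to 3.61 CPM), Ddo (8.88 and 28.6 against 0.0689 to 0.0904 CPM) and Npsr1 (15.8 and 15.7 against 0 to 0.620 CPM) did the same at low levels, and Pafah2 had 16.6 and 40.1 CPM against 8.68 to 11.9. Bglap3 had 0 to 0.723 CPM over the 5 libraries and Cav3 0 CPM in all of them, so their windows differed with little or no RNA in either group. Actb had 1799 and 1370 CPM in young glia and 2261 to 2519 CPM in RPCs and did not pass the test (edgeR adjusted p = 0.0973).

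Among windows higher in young glia, Tfap2a was at 0 CPM in both young libraries, those with fewer genes detected, and at 2.07, 4.16 and 2.80 CPM in RPCs (edgeR adjusted p = 0.000677), and Ebf1 at 0 against 18.3, 11.02 and 19.8 CPM (edgeR adjusted p = 0.000830). Zic4 had 5.39 and 4.93 CPM against 12.95, 21.7 and 17.2 CPM. These 3 genes had more RNA in the group with the lower window. Cyp26c1 and Lrtm1 did not: Cyp26c1 had 7.24 and 12.9 CPM in young glia and 0.895 to 1.57 CPM in RPCs (edgeR adjusted p = 0.000975), and Lrtm1 34.3 and 9.16 against 0 to 0.361 CPM. Tdgf1 was at 0 CPM in all 5 libraries and Tbx1 at 0 to 0.542 CPM, so their windows differed with little or no RNA in either group. Mest had 63.7 and 30.2 CPM in young glia and 115 to 140 CPM in RPCs, and Snrpn 61.7 and 57.5 against 53.5 to 60.2 CPM, with no call (edgeR adjusted p = 0.553). Mest was thus higher in RPCs in both methylation and RNA.

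Of the enzymes that copy methylation, Dnmt1 had 46.6 and 38.9 CPM in young glia and 188 to 197 CPM in RPCs (edgeR adjusted p = 1.54e-06), and Uhrf1 0.066 and 0.197 against 472 to 494 CPM. Dnmt3b had 0 and 7.49 against 117 to 127 CPM. Tet3, an oxidising enzyme, had 191 and 198 against 290 to 313 CPM, and Tet1 and Tet2 did not pass the test. The RNA of the copying enzymes was therefore higher in the progenitors. The window of Uhrf1 was at 1.27% in RPCs and 3.19% in young glia, and Dnmt1 had no window.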

How the data were processed

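RRBS was analysed for 3 RPC and 3 young Müller libraries, with 3 NMDA and 3 aged libraries as values, and RNA for all 10 libraries. The submitters' processing notes name methylKit 1.4.0, Bismark 0.16.3, HISAT2 2.0.4 and Trim Galore 0.4.3, and the builds mm10 and GRCm38, with no step given for each. For RRBS the authors deposited 2 values per strand of each CpG: the percent of methylated reads and the coverage as a count of reads. Every listed position had at least 10 reads. The deposited RNA values were the authors' read counts per gene, whose counting tool and use of strand are not given in the sources used here. Total RNA counts were 10149390 to 36486072 per library, and median coverage was 49 to 99 reads per position. Replicate RRBS libraries differed by 3.19 to 6.15 times the counting variance, so depth alone does not set the precision of levels.

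Methylated reads were recovered from percent and coverage, rounded to whole reads. A quasi-binomial model by group (Python 3.11.15, scipy 1.17.1) with overdispersion moderated by limma 3.58.1 (prior 2.92 with 6.71 degrees of freedom, 4 residual, floor 1) gave F tests, adjusted by Benjamini-Hochberg over all positions, windows or tiles. Calls needed an adjusted p under 0.05 and at least 10 points. The 52968 constant positions were not tested, and sex chromosomes were left out. RNA counts went into edgeR 4.0.16 (R 4.3.3), quasi-likelihood test with TMM scaling. Models were tested on simulated data. Starts and sequences came from RefSeq tables of GRCm38.p6, and all 130766 measured positions inside RefSeq promoter sequences sat on the expected base.

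Named windows were the 10 largest differences in each direction without overlap, the called windows of each list by smallest adjusted p, at most 3, and a fixed set, of which 38 of 47 genes had a window, and for regions the 8 with most called positions in each direction. Not every gene of the fixed set is reported here. Members and lists were chosen with earlier results of these data known. Per the labels RRBS libraries are biological replicates. Same-numbered libraries were not treated as paired, since the labels state no pairing. Alternatives changed the read and position minimum, window width, thresholds, overdispersion, scaling, RNA tool (DESeq2 1.42.0) and libraries.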

Additional observations from a re-analysis of the deposited data

How the results depend on the processing

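Positions, regions, windows, tiles, mean levels and RNA counts kept their direction under the alternatives run, except that positions gave no calls with the replicate block. Regions were not run with that block, and as runs of called positions none could form under it. Positions called higher in RPCs and in young glia (30975 and 13084) were 19935 and 4605 at 25 points and an adjusted p under 0.01, and 75027 and 49744 without overdispersion. Regions (1897 and 588) were 552 and 184 with at least 10 called positions. Windows (154 and 82) were 69 and 19 at 25 points, and 81 higher in RPCs with at least 10 positions; tiles were 1391 and 639 with at least 10. The mean difference in points was 11.77 over all positions, -0.6862 at starts, 19.32 within genes and 19.04 between genes when each library was weighted by its own coverage. It was 1.748 and -0.7195 for all positions and starts with background removed, a setting that lowers the start difference by construction. The setting with background removed and the leave-one-out regions were added after seeing the data.

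Leaving out each library gave 21847 to 24931 and 7389 to 10261 positions, 1343 to 1562 and 358 to 455 regions, 111 to 146 and 68 to 89 windows, and 3336 to 3825 and 1113 to 1343 tiles. Mean differences ranged from 0.4959 to 1.296 over all positions, -1.986 to -1.417 at starts, 2.717 to 4.124 within genes and 2.846 to 4.543 between genes. RNA counts ranged from 18 to 28, 41 to 52, 25 to 34 and 13 to 17.

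The labels do not state that replicate numbers pair the samples. Deviations of same-numbered libraries correlated at -0.00970, -0.0163 and 0.00395, which with 3 libraries per group cannot exclude a shared batch. With the replicate block 0 positions were called in either direction by the quasi-binomial model (141229 at an unadjusted p under 0.05, against 165946 without the block), on 2 residual degrees of freedom. Windows with the block numbered 142 and 82, and tiles 3792 and 1299.

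Of 38 named called windows, 6 were tested again and lost their call under an alternative other than the 25-point rule (Clu, Tfap2a, Nr2e3, Notch4, Nfia and Cdx1) and 0 reversed. Another 19, Rlbp1 and Aldoc among them, had too few positions for a window in at least 1 setting: over all named called windows this was so for 14 at 500 bp, 18 with at least 10 positions and 13 with at least 20 reads. The window of Tet3, not called (1.679 points), ranged from -0.9303 without young replicate 1 to 4.313 without young replicate 3. The cause of these changes was not tested. With at least 20 reads, 22052 and 10684 positions were called.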
